A study of Homo sapiens with 7 samples.

Results

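The 10 genes described here belong to the extrinsic cell death pathway, read in HCT116 H2B-GFP cells treated with bafilomycin A1: the receptors FAS, TNFRSF1A, TNFRSF10A, TNFRSF10B, TNFRSF10C and TNFRSF10D, the adaptor FADD, the regulator CFLAR and the initiator caspases CASP8 and CASP10. They were found by gene name among the non-control spots of the arrays, where they are 10 of 36337 gene names, with 19 of 50599 probes and 37 spots per array. HCT116 is a near-diploid human colon carcinoma cell line, here a derivative that carries histone H2B fused to GFP, and bafilomycin A1 blocks the proton pump that acidifies lysosomes. The treated group holds 4 biological replicates, each exposed to 10 nM for 30 h in DMEM with 10% serum as the labels give it, and each measured on 1 single-colour array from 100 ng of total RNA. The 3 untreated HCT116 H2B-GFP samples were not analysed here, so no effect of bafilomycin A1 could be computed, and every value below describes how the genes read in the treated cells and how far the replicates lay apart.

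Death receptors are cell surface proteins of the TNF receptor family whose intracellular death domain recruits adaptor proteins when the ligand binds. FAS and the TRAIL receptors TNFRSF10A and TNFRSF10B recruit FADD directly, and FADD brings in CASP8 and CASP10, which become active in the complex and go on to cleave the executioner caspases. CFLAR encodes c-FLIP, a relative of CASP8 that lacks protease activity and competes for the same adaptor. TNFRSF10C and TNFRSF10D bind TRAIL without passing on a death signal and are known as decoy receptors.

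Probe by probe, the genes could be read to different extents, and the probes on which the results turn are given here with their place on GRCh37, the build of the array's own annotation. Whether a probe lies in an exon or an untranslated region, and whether it reads only the transcript variant it is described as, was not analysed here. Of the 10 genes, CFLAR, CASP10 and CASP8 are neighbours on chromosome 2, where their 10 probes lie within chr2:202000731-202151897, a stretch of 151 kb. For CASP10, the array describes A_24_P3045 (chr2:202057711-202057770) and A_33_P3255075 (first 30 bases at chr2:202094051-202094080) as probes of transcript variant 2, and A_33_P3504659 (first 30 bases at chr2:202084646-202084675) and A_33_P3383283 (first 30 bases at chr2:202086244-202086273) as probes of transcript variant 1. For CASP8, A_24_P148499 (chr2:202136256-202136315) is described as variant E and A_24_P157087 (first 30 bases at chr2:202151838-202151867) as variant B. All are on the plus strand, and they are shown because A_24_P3045, A_33_P3255075 and A_24_P148499 missed detection on some or all arrays while the others were detected on all 4.
CASP10 A_24_P3045: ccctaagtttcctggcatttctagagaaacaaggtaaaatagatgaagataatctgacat
CASP10 A_33_P3255075: acaagcggatggttaaacaatttaaacaaa
CASP10 A_33_P3504659: ccttggggcgtggaagggcattaggagtgt
CASP10 A_33_P3383283: gagaacaatcccctttgactgtaatttccc
CASP8 A_24_P148499: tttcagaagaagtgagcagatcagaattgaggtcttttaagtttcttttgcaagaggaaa
CASP8 A_24_P157087: aatccagctatgaatatagagggcttatga

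A further pair bears on how probes of 1 receptor compare. The FAS probes A_33_P3381127 (last 30 bases at chr10:90774547-90774576, plus strand) and A_23_P63896 (first 30 bases at chr10:90774545-90774574, plus strand) share 32 bases, since they start 28 bases apart, and the capitals mark bases inside the shared stretch.
FAS A_33_P3381127: GTCTATCCACAGGCTAACCCCACTCTATGA
FAS A_23_P63896: ATGTCTATCCACAGGCTAACCCCACTCTAT

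All 10 genes were detected in the treated cells. Detection meant that 1 probe or more had over 50% of its spots flagged as well above background by the scanner software, on each of the 4 arrays, and 52.5% of all gene names met it. Of the 19 probes, 16 were detected on all 4 arrays (48.7% of all probes were), 2 on some and 1 on none. When every probe of a gene had to be detected, 8 of the 10 genes remained, beside 43.4% of all gene names, and the 2 lost were CASP8 and CASP10. Signals are given below as background-subtracted intensities, or as log2 of these minus the median of the array, the scale of the study's methods. The brightness of a probe also depends on its sequence, so levels of different probes or genes were not ranked. In RNA from whole cultures, fewer expressing cells and less RNA per cell cannot be told apart.

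**Figure D1:**
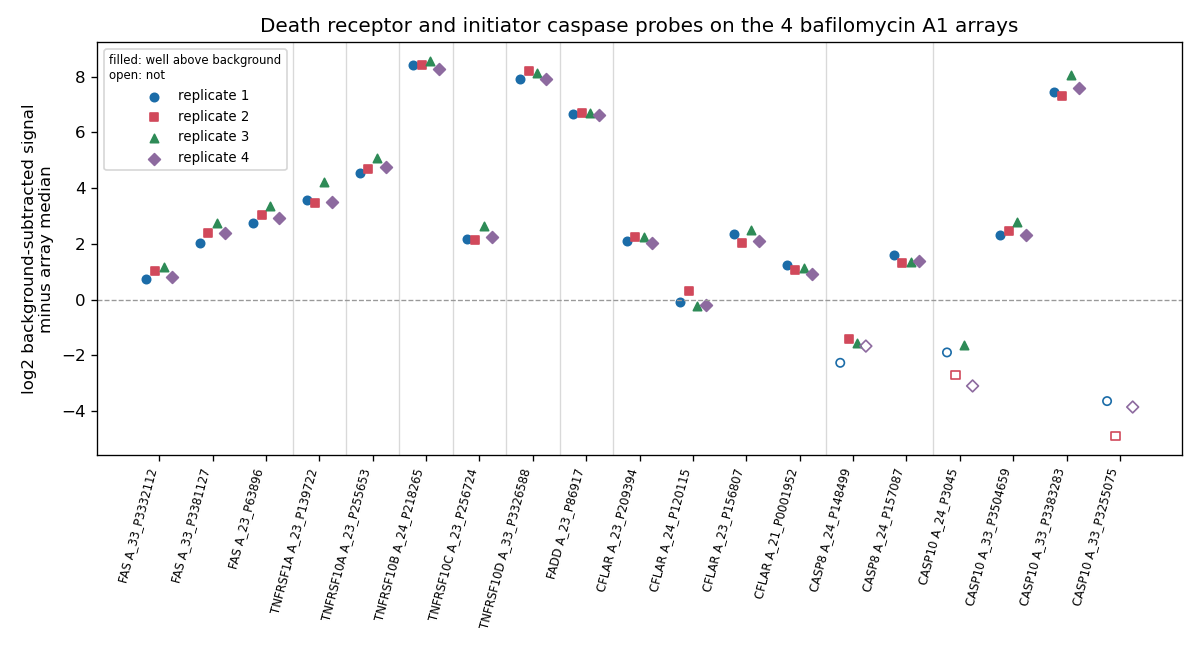
Each column is 1 of the 19 probes, grouped by gene. The vertical axis is the log2 background-subtracted signal minus the array median, filled symbols mark arrays on which the probe was well above background, and open symbols mark the others. The open symbols are confined to 1 CASP8 probe and 2 CASP10 probes, and A_33_P3255075 has no point on replicate 3, where its signal was below 0. Heights of different probes are not comparable.

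FAS, the receptor of the Fas ligand, was read by 3 probes, all detected on all 4 arrays. Its log2 signal, the median over these probes, was 2.03, 2.37, 2.74 and 2.40 on replicates 1 to 4, or 2.39 ± 0.29 (SD, n = 4). Each of the 3 probes was highest on replicate 3 and lowest on replicate 1. The probe A_33_P3332112 spanned 1.33-fold between its highest and lowest array, A_33_P3381127 spanned 1.64-fold, and A_23_P63896 spanned 1.52-fold. Across arrays, the SD of the difference between probes was 0.16 for A_33_P3332112 and A_33_P3381127, 0.09 for A_33_P3332112 and A_23_P63896, and 0.09 for the overlapping pair. The 3 FAS probes thus shared their highest and lowest array, though not the size of the span, and 2 of them lie on partly the same bases.

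The intracellular death domain of TNFRSF1A, a receptor of TNF, binds the adaptor TRADD rather than FADD. Its log2 signal was 3.56, 3.47, 4.22 and 3.50 in the order of the replicates, or 3.69 ± 0.36 (SD, n = 4). Replicates 1, 2 and 4 lay close together and replicate 3 stood above them, a span of 1.69-fold. The gap between replicate 3 and its nearest neighbour, divided by the whole range (Dixon's ratio), was 0.876, above the 95% critical value for 4 values. Among the 10 genes this was the only one with an array apart, against 8.48% of all detected genes. Under the processed signal scaled to the 75th percentile no gene of the 10 passed that value, and under normexp background correction with quantile normalization only TNFRSF10D did, and with arrays centred on the median of all probes only CASP10 did, so each of these 3 scalings ended the call for TNFRSF1A. Replicate 3 remained the highest array for TNFRSF1A after normexp and quantile normalization, 0.36 above the mean of the 4 arrays on the log2 scale. Its only probe shares a run of 21 bases with a probe of HDAC4, a histone deacetylase, which lay 0.15 above its own mean on replicate 3, where TNFRSF1A lay 0.54 above its mean, and the part of this shared run was not tested.

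The probe A_23_P63896 of FAS and the only probe of TNFRSF1A were each printed as 10 spots, so both can be read within and between arrays. Spot ranges are given in intensities before centring. The SD between spots is that of single spots, and the SD between arrays is that of centred array values, each a mean over its spots. A mean over spots scatters less than single spots, so the SDs are unlike measures. For TNFRSF1A, the 10 spots ranged from 738 to 1147 (median 866) in the first replicate, from 620 to 902 (median 778) in the second and from 1069 to 1668 (median 1299) in the third. On replicate 4, 9 spots that were not marked as outliers ranged from 642 to 777 with a median of 707. The dimmest spot on replicate 3 was brighter than every spot used on replicates 2 and 4 and overlapped with the brightest of replicate 1. The SD between spots of an array was 0.19 at the median over arrays (0.10 to 0.22) on the log2 scale, and the SD between arrays was 0.36. For FAS, the spots ranged from 456 to 568 in the first replicate, from 511 to 679 in the second, from 599 to 810 in the third, where 9 spots were used, and from 432 to 542 in the fourth. Here the spots of replicate 3 lay above those of replicates 1 and 4 and overlapped with those of replicate 2. The SD between FAS spots was 0.13 at the median (0.10 to 0.15), and the SD between arrays was 0.25. Across all 673 detected probes printed as 10 spots, the median SD was 0.18 between single spots and 0.20 between array values. The array SD was the larger in 56.0% of them. Since each array value is a mean over spots, these numbers do not mean that the scatter within and between arrays was of equal size.

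**Figure D2:**
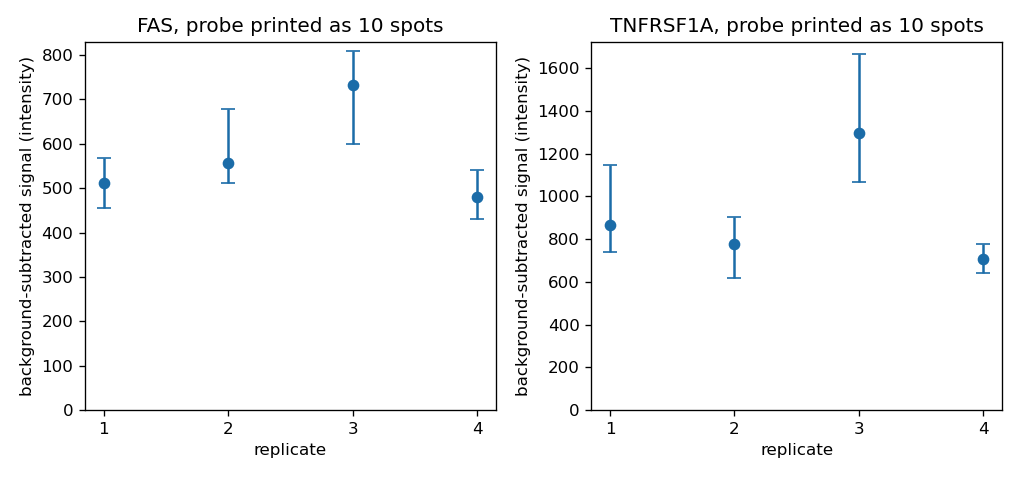
Points are the median and bars the lowest and highest spot of the probes printed as 10 spots, for FAS (left) and TNFRSF1A (right), as background-subtracted intensity before centring. On replicate 3 the TNFRSF1A spots ran from 1069 to 1668, while no spot used on replicates 2 and 4 exceeded 902. Spots marked as outliers, 1 of FAS on replicate 3 and 1 of TNFRSF1A on replicate 4, are not drawn.

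TNFRSF10A and TNFRSF10B are the receptors through which TRAIL passes on a death signal. Their probes and those of the decoys TNFRSF10C and TNFRSF10D lie within 172 kb at chr8:22877776-23049312. TNFRSF10A read 4.54, 4.67, 5.08 and 4.76 on replicates 1 to 4, or 4.76 ± 0.23 (SD, n = 4) on the log2 scale, highest on replicate 3 and spanning 1.45-fold. TNFRSF10B read 8.40, 8.43, 8.55 and 8.27, or 8.42 ± 0.12 (SD, n = 4), and spanned 1.21-fold. Its background-subtracted intensities were 26060, 24230, 26395 and 19641, and no spot on any array was marked as saturated. Of the pair, only TNFRSF10A spanned more than 1.4-fold, and neither has an array apart by Dixon's ratio.

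The decoy receptors varied in a similar range. TNFRSF10C, which is held in the membrane by a lipid anchor and has no death domain, read 2.18, 2.12, 2.65 and 2.24, or 2.30 ± 0.24 (SD, n = 4), and spanned 1.44-fold with replicate 3 on top. TNFRSF10D, whose death domain is truncated, read 7.93, 8.20, 8.14 and 7.93, or 8.05 ± 0.14 (SD, n = 4), and spanned 1.21-fold. TNFRSF10D was the only receptor whose highest array was replicate 2, with replicate 3 next to it.

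FADD had the smallest SD of the 10 genes on this scale. Its only probe read 6.67, 6.69, 6.71 and 6.64, or 6.68 ± 0.03 (SD, n = 4), a span of 1.05-fold, and 0.246% of all detected genes had a smaller SD. The rank depended on the scaling: CFLAR and TNFRSF10B had a smaller SD than FADD with the processed signal, and CASP8, CFLAR and TNFRSF10B had one with normexp and quantile normalization. The SD of FADD was 0.10 after normexp and quantile normalization and 0.09 when arrays were centred on the median of all probes with signals at or below 0 counted as lowest, where the median over all detected genes was 0.11 and 0.22.

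CFLAR was read by 4 probes, all detected on all 4 arrays. Its log2 signal over the probes was 1.67, 1.56, 1.69 and 1.47, or 1.60 ± 0.10 (SD, n = 4), a span of 1.17-fold. The steady summary covered probes that moved differently. A_24_P120115, described as variant 1, read -0.09, 0.30, -0.24 and -0.20 and was highest on replicate 2. A_23_P156807, described as variant 8, read 2.36, 2.04, 2.49 and 2.12 and was lowest on replicate 2. The SD of the difference between these probes was 0.42, against 0.13 for A_23_P209394 (variant 3) and A_21_P0001952 (variant 8). A_23_P156807 shares a run of 34 bases with a probe of METTL21A, a methyltransferase, which was detected on all 4 arrays and lay -0.15, -0.07, 0.28 and -0.07 from its mean, where A_23_P156807 lay 0.11, -0.22, 0.24 and -0.13 from its own. The part of this shared run was not tested.

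CASP8, the main initiator caspase of the pathway, was detected through 1 of its 2 probes. A_24_P157087, described as variant B, had intensities of 233, 173, 181 and 165 on replicates 1 to 4, or 1.41 ± 0.13 (SD, n = 4) on the log2 scale. A_24_P148499, described as variant E, had 16.02, 26.02, 23.83 and 19.99 and was well above background on replicates 2 and 3 only. The lowest intensity called well above background was 21.5, 21.5, 20.8 and 22.3 on the 4 arrays, so this probe lay within a few units of the limit on each of them. The median over both probes, the summary in the study's methods, was -0.34, -0.06, -0.10 and -0.14, or -0.16 ± 0.12 (SD, n = 4), and averages a probe near the limit with one clear of it.

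CASP10, the close relative of CASP8, showed the widest spread, and the spread came from the summary over probes. A_33_P3383283 had intensities of 13380, 11130, 18614 and 12363, and A_33_P3504659 had 383, 390, 485 and 318, both described as variant 1 and both detected on all 4 arrays. A_24_P3045, described as variant 2, had 20.7, 10.8, 22.9 and 7.42 and was well above background on replicate 3 only. A_33_P3255075, also variant 2, had 6.18, 2.35, -5.26 and 4.39 and was well above background on no array. A signal below 0 has no logarithm, so on replicate 3 the median ran over 3 probes and on the other arrays over 4. The gene value was therefore 0.21, -0.11, 2.79 and -0.39, or 0.63 ± 1.46 (SD, n = 4), a span of 9.02-fold, although no single CASP10 probe spanned more than 2.79-fold over the arrays where it had a value. With the 3 probes above 0 on every array it was 2.31, 2.48, 2.79 and 2.33, a span of 1.39-fold, and with the 2 probes detected on all 4 it was 4.88, 4.89, 5.42 and 4.97, or 5.04 ± 0.26 (SD, n = 4), a span of 1.46-fold. The number of probes with a value differed between arrays for CASP10 alone of the 10 genes, against 8.42% of all detected genes. Of the 4 genes with several probes, CASP10 was the only one with a probe detected on no array, against 32.4% of detected genes with several probes.

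**Figure D3:**
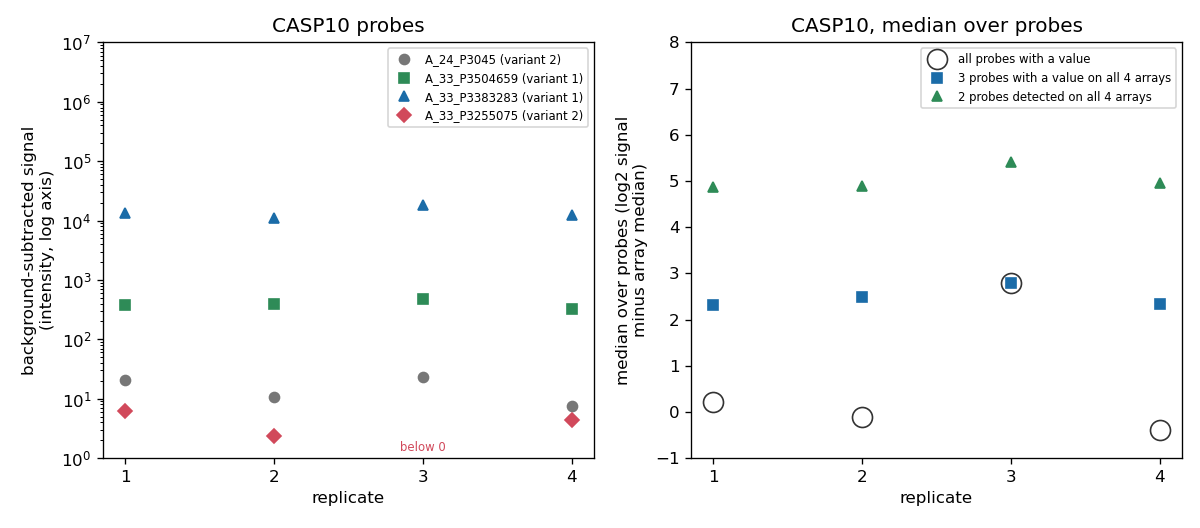
Left, background-subtracted intensity of the 4 CASP10 probes by replicate on a log axis, with "below 0" where the signal was negative. Right, the median over probes on the log2 scale for all probes with a value (large open circles), the 3 probes with a value on all 4 arrays (squares) and the 2 probes detected on all 4 arrays (triangles). The open circle stands at 2.79 on replicate 3, where it encloses the square, and lies between -0.39 and 0.21 on the others.

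Over the 10 genes, 5 spanned more than 1.4-fold between the highest and the lowest array: FAS, TNFRSF1A, TNFRSF10A, TNFRSF10C and CASP10. Among all detected genes 46.4% did. The study's methods set 1.4-fold for a change between cell lines, each a median over replicates. A range over 4 single arrays is an unlike measure. Counted by probe, 7 of the 16 detected on all 4 arrays spanned more than 1.4-fold (43.5% of all such probes did) and 1, that of TNFRSF1A, had an array apart (7.3%). The median SD of the 10 genes was 0.19, beside 0.21 over all detected genes. Leaving out replicate 3 left 1 gene over 1.4-fold, CASP10, and a median SD of 0.10, beside 0.15 over all detected genes. This CASP10 span came from its median with dim probes. Its 2 probes detected on all 4 arrays read 4.88, 4.89 and 4.97 on replicates 1, 2 and 4. Normexp with quantile normalization left 1 gene, TNFRSF1A, with a median SD of 0.10 beside 0.11, where 15.5% of all detected genes spanned more than 1.4-fold. Without replicate 3 that share was 21.9%.

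Replicate 3 was the highest array for 11 of the 16 probes detected on all 4 arrays, as for 50.4% of all such probes. Replicate 2 was highest for 3 (25.1% of all), replicate 1 for 2 (19.7%) and replicate 4 for 0 (4.79%). Replicate 1 was the lowest array for 6 of the 16 probes (27.9% of all), replicate 2 for 5 (14.1%), replicate 4 for 4 (34.6%) and replicate 3 for 1 (23.5%). The median deviation of the 16 probes from their 4-array mean was 0.23 on replicate 3, beside 0.11 over all detected probes, -0.12 on replicate 1 beside -0.03, and -0.12 on replicate 4 beside -0.10. Of the 8 receptor probes, 7 were highest on replicate 3, including the 3 FAS probes, which are not independent of each other, and their median deviation there was 0.33. After normexp and quantile normalization it was 6 of 8 receptor probes and 8 of all 16, beside 36.6% of all probes, with a median deviation of 0.17 for the receptor probes beside 0.00 over all. Centred on the median of all probes it was 8 of 8 and 13 of 16, beside 54.2%. The detected probes of the other death and decoy receptors, described below, did not share this on the scale of the study's methods. There, TNFRSF21 and A_23_P218646 of TNFRSF6B were highest on replicate 3. NGFR, TNFRSF1B, A_33_P3305571 of TNFRSF6B and A_23_P126844 of TNFRSF25 were highest on replicate 2, and A_33_P3234530 of TNFRSF25 on replicate 1. On the same scale, the detected probes of FADD, CFLAR, CASP8 and CASP10 were split. The CASP10 probes A_33_P3383283 and A_33_P3504659 were highest on replicate 3, by 0.45 and 0.31 above their means, as was the FADD probe, by 0.03. The 4 CFLAR probes and the CASP8 probe showed no common direction: 2 were highest on replicate 2, 2 on replicate 1 and 1 on replicate 3. Replicate 3 also held the most spots marked as outliers, 2249 beside 514 to 725 on the others, when flags of the local background were counted. By the spots' own flags alone the numbers were 331, 275, 366 and 410 on replicates 1 to 4, highest on replicate 4. With these spots kept, the same 5 genes spanned more than 1.4-fold.

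**Figure D4:**
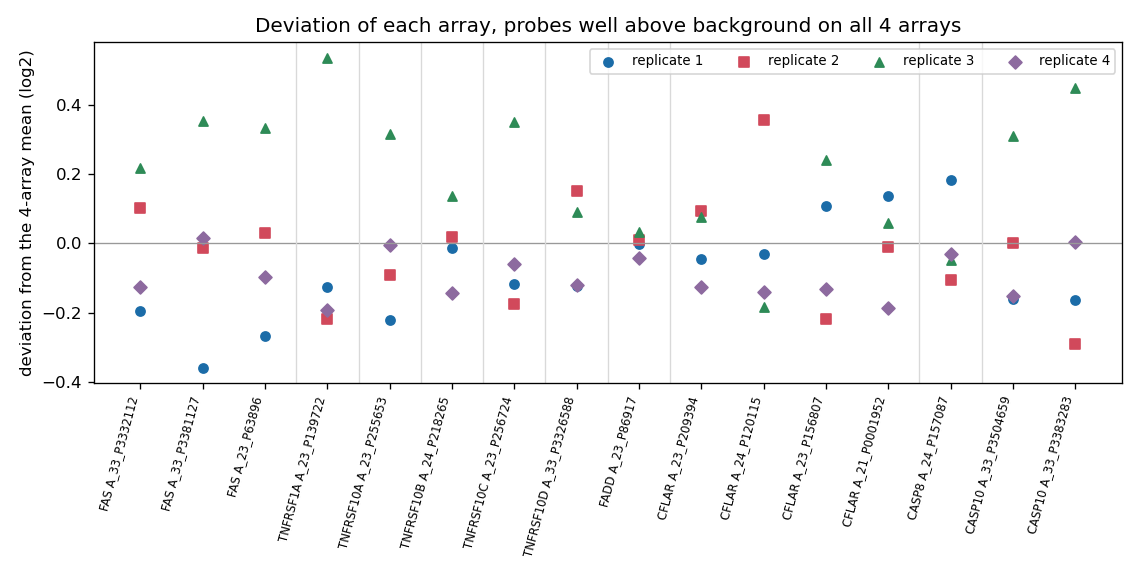
Each column is 1 of the 16 probes detected on all 4 arrays, and each symbol is the deviation of 1 array from the mean of the 4 on the log2 scale. The triangles of replicate 3 lie on top for 7 of the 8 receptor probes and reach 0.54 for TNFRSF1A, while the 4 symbols of FADD lie nearly on each other.

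The genes around this pathway fell into groups by detection, to be read beside the 52.5% of all gene names detected on all 4 arrays. Among 6 death ligands, LTA (lymphotoxin alpha) alone was detected on all 4 arrays, at -0.63 ± 0.07 (SD, n = 4). TNF was detected on 3 arrays and TNFSF10, which encodes TRAIL, on 2, while FASLG, the ligand of FAS, LTB and TNFSF15 were detected on none. The treated cells thus held readable transcripts for the receptors of TRAIL and Fas ligand, and none or intermittent signal for these ligands themselves.

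Of 8 other death and decoy receptors, 5 were detected on all 4 arrays. TNFRSF21, a death domain receptor, read 6.92 ± 0.22 (SD, n = 4), with replicate 3 apart from the others. TNFRSF6B, a soluble decoy for Fas ligand, read 4.18 ± 0.19, TNFRSF25, a death domain receptor, 2.65 ± 0.24, and NGFR, the low affinity neurotrophin receptor, 2.54 ± 0.16 (SD, n = 4 each). The TNFRSF25 value is the midpoint of probes at 5.77 and -0.48, and the TNFRSF6B value that of probes at 5.31 and 3.05. For TNFRSF6B, A_33_P3305571 was lowest on replicate 3 and spanned 1.80-fold, while A_23_P218646 was highest there and spanned 1.22-fold. The other TNF receptor, TNFRSF1B, which has no death domain, read -1.03 ± 0.31 on its detected probe. EDAR, EDA2R and TNFRSF11B were detected on no array.

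All 17 adaptors and ubiquitin regulators, among them TRADD and RIPK1 of the TNF receptor complex, and all 6 genes that link the pathway to mitochondria, among them BID, were detected on all 4 arrays. CYLD, a deubiquitinase of RIPK1, was the only gene of these 2 lists with an array apart, at 0.25, 0.24, 0.92 and 0.20 on replicates 1 to 4. Among 9 other caspases, 7 were detected on all 4 arrays. CASP6, an executioner caspase, was detected on replicates 1 and 4 only, since its only spot was marked as an outlier and left out on replicates 2 and 3, and it had intensities of 827 and 615 on the others. CASP9, the initiator caspase of the mitochondrial route, read 3.57 ± 0.15, and CASP2 read 2.82 ± 0.08 (SD, n = 4 each). The small SD of CASP2 covered 2 probes that moved in opposite directions. A_23_P387943 was highest on replicate 3 and spanned 1.62-fold, while A_33_P3308387 was lowest there and spanned 1.58-fold. The inflammatory caspases CASP4 and CASP5 read 6.05 ± 0.15 and 3.81 ± 0.20 (SD, n = 4 each), while CASP1 was detected on no array. CASP14, known from skin, read -1.40 ± 0.17 (SD, n = 4). Its intensity on replicate 4 was 22.7, where the lowest called well above background was 22.3. Of 3 necroptosis genes, MLKL, which permeabilizes the membrane, read 2.74 ± 0.11 (SD, n = 4), RIPK3, the kinase that activates it, was detected on 3 arrays, and ZBP1 on none. The RIPK3 call rested on A_33_P3303291, at 22.2, 23.3 and 32.1 on replicates 1 to 3. The lowest intensities called well above background there were 21.5, 21.5 and 20.8.

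**Figure D5:**
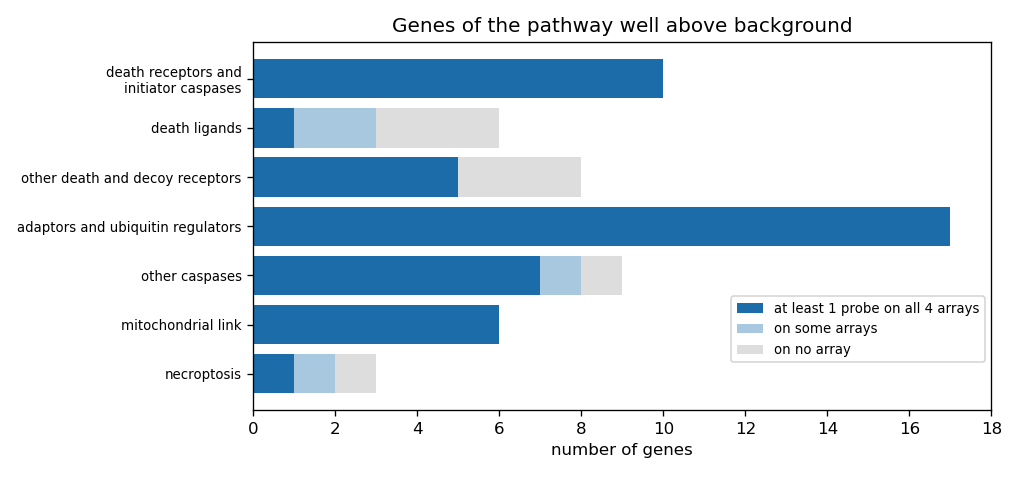
Horizontal bars give the number of genes per list with at least 1 probe well above background on all 4 arrays (dark), on some arrays (light) or on none (grey). The 10 death receptor and initiator caspase genes, the 17 adaptors and ubiquitin regulators and the 6 mitochondrial genes are dark throughout, and of the 6 ligands 1 is.

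The label of the cells was checked by markers. Of 10 epithelial and intestinal markers, 8 were detected on all 4 arrays, among them EPCAM, KRT18, KRT19 and CDX2, while VIL1 and CDH17 were detected on none. Of 10 markers of blood, endothelial, stromal and liver cells, 4 were detected on all 4 arrays (PTPRC through 1 of 5 probes, CD3E, VWF and COL1A1), 3 on some and 3 on none, beside 52.5% of all gene names. CD14, a marker of monocytes, is among the 3 on some because its only spot was left out as an outlier on replicates 2 and 3, and it had intensities of 173 and 155 on the other arrays.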

How the data were processed

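Total RNA of 4 HCT116 H2B-GFP samples treated with bafilomycin A1 was labelled with Cy3 and hybridized to Agilent SurePrint G3 arrays of 60-base probes. The authors deposited the intensity columns of each array as written by Agilent Feature Extraction 10.7.3.1, unnormalized between arrays. The deposited p-value column for a spot against background was used in no call. All 4 arrays lay on 1 slide with 1 scan day. The software's background was its fitted spatial surface in 100% of spots.

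As in the study's methods, background-subtracted signals were log2 transformed, centred on the array median and summarized per gene as the median of its probes. Spots of 1 probe were averaged first, control spots and spots marked as outliers were left out, and signals at or below 0 (14.9% to 17.4% of spots) had no value on that array. Between 55.6% and 60.4% of the 58717 non-control spots per array were well above background. The number of arrays limits the precision. With 1 group there was no test, and counts of the 10 genes or their probes stand beside the share over all genes or probes.

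The genes and lists were chosen with earlier results of these data known. All 10 genes were named with each probe. Of the lists on ligands, other receptors, other caspases and necroptosis every gene was named, save a few items that are not reported here, and of the other lists up to 5 genes detected on no array, any with 1 array apart, and a few examples chosen after their values were seen. Which spots count as outliers was settled after seeing both readings: first the spot's own flags alone, then also those of its local background. The alternatives were the processed signal at the 75th percentile, normexp (offset 50) with quantile normalization, other probe, outlier, centring and detection rules, and leaving out each array. Scripts were tested on simulated data. Python 3.11.15, numpy 2.4.6, pandas 2.3.3, scipy 1.17.1, matplotlib 3.10.9, R 4.3.3 and limma 3.58.1 were used.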

Additional observations from a re-analysis of the deposited data

Results flagged for a closer look

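Dixon's ratio was taken for 47 genes of the lists and for the 10 detected probes of FAS, CFLAR, CASP8 and CASP10, and none of these 10 probes passed the 95% critical value for 4 samples. Of the genes 4 passed it, where chance gives about 1 in 20 and 8.48% of all detected genes passed. TNFRSF1A had a ratio of 0.876, with replicate 3 high at 4.22 beside 3.47 to 3.56. TNFRSF21 had a ratio of 0.880, with replicate 3 at 7.25 beside 6.77 to 6.83. CYLD had a ratio of 0.933, also with replicate 3 high. CASP14, dim on all arrays, had a ratio of 0.938 with replicate 1 high at -1.14 beside -1.50 to -1.47. Replicate 3 was the highest array for 50.4% of all detected probes.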

How the results depend on the processing

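All 10 genes were detected under each alternative except the rule that every probe be detected, which left 8. The count of genes spanning more than 1.4-fold, 5, fell to 1 with normexp and quantile normalization, where the median SD was 0.10, and with 1 array left out it ran from 1 (without replicate 3) to 5, with 3 without replicate 1. The median SD of 0.19 rose to 0.24 with centring on the median of all probes and ran from 0.10 to 0.21 with 1 array left out, lowest without replicate 3. Over all detected genes it was 0.21 on the study's scale and 0.22 with that centring, so the 10 genes lay below all genes on the former and above on the latter. Without replicate 4 both were 0.21. The count of genes with 1 array apart, 1, was 0 for the processed signal, 2 when only probes detected on all 4 arrays were used (TNFRSF1A and CASP10) and 2 with the mean over probes (TNFRSF1A and CFLAR). It stayed at 1 but for another gene with normexp and quantile normalization (TNFRSF10D) and with centring on all probes (CASP10). Levels of single genes moved by more than their own SD between arrays for CFLAR with the mean over probes (1.36), CASP8 with detected probes only (1.41) and CASP10 with detected probes (5.04) or with probes above 0 on every array (2.48). The SD of CASP10 is itself so wide that smaller shifts of its level say nothing of stability. Leaving out only spots with outlying signals of their own, an alternative chosen after seeing the data, gave the same counts. Outlier rules could hardly change them, since only 2 spots of the 10 genes were marked. No paired analysis was possible because files of 1 group only were analysed. Slide and scan as a block were not run, since all arrays share 1 slide and 1 scan day. Signals near 21 units, as for CASP8 A_24_P148499, are at the limit of detection.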

Other observations

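CASP10 was not the only gene of the pathway whose value depended on a dim probe. TNFRSF1B spanned 54.7-fold as the median over its probes and 1.62-fold on the detected probe. For TRAF2, an adaptor of the TNF receptor complex, the spans were 2.10-fold and 1.12-fold.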
